A study of Mus musculus with 16 samples.

Results

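Transcripts of 10 melanocyte genes (Pmel, Mlana, Tyr, Tyrp1, Dct, Slc45a2, Mitf, Sox10, Trpm1 and Gpnmb) were followed in T cells isolated from B16F10 melanomas. They were found by gene name and are 10 of the 55450 genes of the count table. B16F10 is a pigmented mouse melanoma cell line, so the reads of these genes give a measure of tumor cell RNA carried into T cell libraries. Total RNA was sequenced from CD4+ and CD8+ tumor-infiltrating T lymphocytes (TILs) of wild-type (WT) and Sirt2-/- mice, which lack the deacetylase SIRT2. Each genotype and cell type had 4 libraries (16 in all), and every mouse carried a subcutaneous (s.c.) B16F10 tumor. The WT mice were C57BL/6J and the Sirt2-/- mice carried the germline allele of the strain B6.129-Sirt2tm1.1Fwa/J, and the study used mice of 7 to 8 weeks of age with no further treatment given in the labels. The tumor line was the same in all groups. TILs were enriched by a Percoll gradient and CD3ε MicroBeads, and how CD4+ and CD8+ cells were then separated is not given in the sources used here. No library of B16F10 cells themselves was analysed here.

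Melanocytes make pigment in melanosomes, organelles related to lysosomes. PMEL (gp100) forms the fibrils on which melanin is laid down, tyrosinase (Tyr), TYRP1 and dopachrome tautomerase (Dct, also called TRP2) make the pigment, and the transcription factors MITF and SOX10 switch these genes on. gp100, TRP1, TRP2 and MART-1 (Mlana) are also known antigens of T cells that recognise melanoma. MITF is known to act at promoters that hold the letters CATGTG or CACGTG (E-boxes).

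Total counts ranged from 28000949 to 62407851 per library. In 13 libraries between 17730 and 22138 genes had a count, but 3 libraries stood apart: 8169 genes in Sirt2-/- CD4+ replicate 4 and, for replicate 1 of the WT mice, 12587 in CD4+ and 14411 in CD8+ TILs. Results that rest on them are given with and without them. Sirt2 was at 32.7 to 81.1 CPM (counts per 1000000 counts of the library) in the 8 WT libraries and at 0 to 12.3 CPM in the 8 Sirt2-/- libraries, in the direction of the labels. The summed level of 3 CD4 markers was 390 to 742 CPM in CD4+ and 0.806 to 12.3 CPM in CD8+ libraries, and that of 3 CD8 markers was 161 to 279 and 1923 to 2355 CPM, so both cell types carried their defining markers. By edgeR, Cd4, Cd40lg and Zbtb7b were called lower (log2 differences of -9.13 to -3.16) and Cd8a, Cd8b1 and Runx3 higher (0.69 to 7.59) in CD8+ than in CD4+ TILs of both genotypes.

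RefSeq promoters of the build GRCm38.p6 were available for 6 of the 10 genes, and the 250 bases before each start site were searched on both strands for CATGTG and CACGTG, which do not overlap each other in these windows. At least 1 of these motifs lay in 5789 of all 32851 promoter windows (17.6%). CATGTG alone was in 12.3% of windows and CACGTG in 6.02%. The motifs were present before a start site of Tyr, Tyrp1, Dct and Trpm1 and absent from the windows of Gpnmb and Mitf. The windows of Tyr, Dct and Trpm1 are printed 5′ to 3′ with the motifs in capitals because the former pair were among the genes with the highest values in 1 library described below, and Trpm1 had the opposite order between cell types.
Tyr, chr7:87493513-87493762, minus strand: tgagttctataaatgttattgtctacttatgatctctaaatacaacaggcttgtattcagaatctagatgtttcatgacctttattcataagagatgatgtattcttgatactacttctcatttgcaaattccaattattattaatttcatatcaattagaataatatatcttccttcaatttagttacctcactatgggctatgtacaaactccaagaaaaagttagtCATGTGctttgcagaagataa
Dct, chr14:118052247-118052496, minus strand: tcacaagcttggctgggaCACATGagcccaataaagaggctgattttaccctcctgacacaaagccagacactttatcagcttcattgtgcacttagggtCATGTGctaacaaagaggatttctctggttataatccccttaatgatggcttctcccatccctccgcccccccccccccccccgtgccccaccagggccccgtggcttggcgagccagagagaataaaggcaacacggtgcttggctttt
Trpm1, chr7:64153585-64153834, plus strand: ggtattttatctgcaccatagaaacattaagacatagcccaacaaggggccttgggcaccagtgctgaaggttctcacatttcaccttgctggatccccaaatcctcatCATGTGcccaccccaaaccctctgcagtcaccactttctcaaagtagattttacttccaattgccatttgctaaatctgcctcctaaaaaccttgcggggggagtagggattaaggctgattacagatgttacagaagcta
The Tyr motif began 21 bases before the start site, and those of Dct 232 and 150 bases before it, the first of them being read as CATGTG on the other strand. The Trpm1 motif began 141 bases before its upstream start site, and a second annotated start held CACGTG 229 bases before it. In Tyrp1 a CATGTG lay 46 bases before the RefSeq start, within an annotated exon, and is not printed. A match describes the letters only, and no measurement of binding was made here.

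The 10 genes together held few reads. Their summed level was 10.4 to 139 CPM in WT CD4+, 18.1 to 72.9 CPM in Sirt2-/- CD4+, 9.27 to 16.1 CPM in WT CD8+ and 13.1 to 31.6 CPM in Sirt2-/- CD8+ TILs. The groups overlapped in every comparison, and the means were 49.7 ± 60.3, 34.8 ± 25.6, 11.0 ± 3.39 and 18.3 ± 8.92 CPM (SD, n = 4 each). In the plot of summed CPM, WT CD4+ replicate 1 stood at 139 CPM and Sirt2-/- CD4+ replicate 4 at 72.9 CPM, while the other 14 libraries lay at or below 31.6 CPM. Without the 3 libraries with few genes, the means were 19.8 ± 10.2 (n = 3), 22.1 ± 3.47 (n = 3), 9.35 ± 0.136 (n = 3) and 18.3 ± 8.92 CPM (SD, n = 4). The 3 remaining WT CD8+ libraries, at 9.27, 9.28 and 9.51 CPM, then lay below all 4 Sirt2-/- CD8+ libraries. The WT CD8+ library left out, at 16.1 CPM, lay inside the Sirt2-/- range. The share of all genes apart with 3 against 4 libraries was not determined. In bulk RNA, fewer tumor cells, less RNA per tumor cell and a share of these reads from other cells cannot be told apart.

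**Figure D1:**
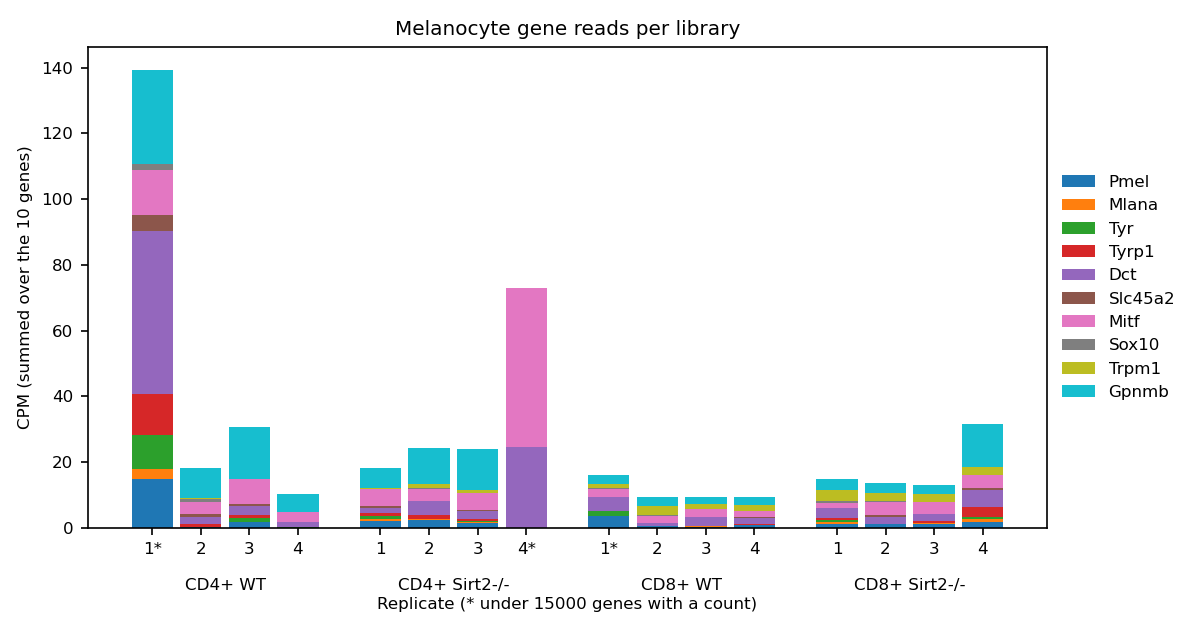
Summed CPM of the 10 melanocyte genes (y axis) in each of the 16 libraries (x axis, replicates by group, with * marking the 3 libraries with under 15000 genes with a count), with 1 color per gene. WT CD4+ replicate 1 reached 139 CPM and Sirt2-/- CD4+ replicate 4 reached 72.9 CPM, and the rest stayed at or below 31.6 CPM.

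Gpnmb and Mitf, which macrophages and other cells also express, took 30.5% to 83.0% of the melanocyte gene reads of a library. The lowest share, 30.5%, was in WT CD4+ replicate 1, where 8 of the 10 genes had their highest level of all 16 libraries. The 7 genes Pmel, Mlana, Tyr, Tyrp1, Dct, Slc45a2 and Sox10 summed to 96.9 CPM there, against 1.77 to 7.28 CPM in the other 3 WT CD4+ libraries, 5.40 to 24.6 CPM in Sirt2-/- CD4+, 1.80 to 9.64 CPM in WT CD8+ and 4.19 to 12.05 CPM in Sirt2-/- CD8+ TILs. Sirt2-/- CD4+ replicate 4 had a different make-up: its 4551 melanocyte gene reads came from Mitf (3016) and Dct (1535) alone, and 8 of the 10 genes had no count. A count of 0 in that library allows up to 0.0481 CPM by the limit of 3 counts, which covers counting error only, since several reads can come from 1 molecule where molecular identifiers are not used. Across the 16 libraries this limit was 0.0481 to 0.107 CPM, and 26 of the 160 values of the 10 genes were 0.

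**Figure D2:**
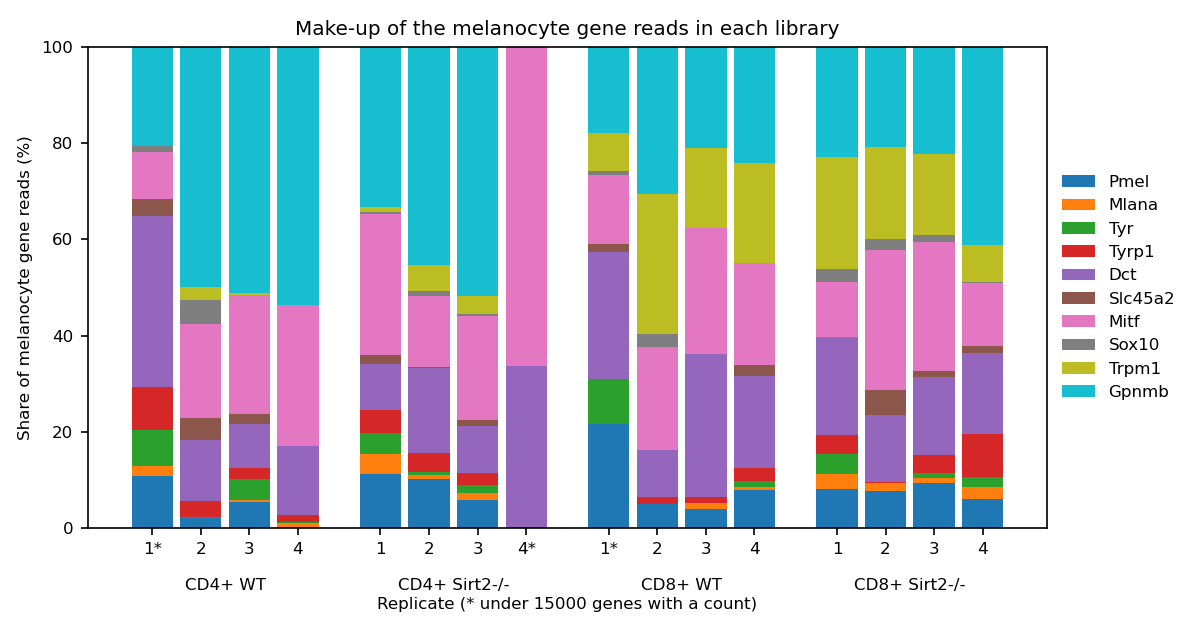
Share of the melanocyte gene reads (y axis, %) that each of the 10 genes (colors) took in each library (x axis, replicates by group, with * marking libraries with under 15000 genes with a count). Sirt2-/- CD4+ replicate 4 held only Dct and Mitf, and Gpnmb with Mitf made up 30.5% of WT CD4+ replicate 1 and 83.0% of WT CD4+ replicate 4.

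Levels can be compared between genes only per length, here as CPM per kilobase of annotated exon. The median over the 16 libraries was 0.689 for Gpnmb, 0.582 for Mitf, 0.525 for Pmel and 0.434 CPM per kilobase for Dct, whose ranges over libraries overlapped widely. Tyrp1 (0.193), Mlana (0.129), Trpm1 (0.0865), Slc45a2 (0.0798), Sox10 (0.0335) and Tyr (0.0171 CPM per kilobase) followed. Neighbours in this order did not differ beyond their spread over libraries.

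The melanosome structure genes were low outside 1 library. Pmel (ENSMUSG00000025359.10, chromosome 10, 128704195 to 128720238, plus strand, GRCm38) was at 15.0, 0.360, 1.68 and 0 CPM in WT CD4+ replicates 1 to 4 and at 2.02, 2.48, 1.40 and 0 CPM in Sirt2-/- CD4+ replicates 1 to 4. In CD8+ TILs it was at 3.47, 0.477, 0.365 and 0.739 CPM in WT and at 1.20, 1.04, 1.21 and 1.89 CPM in Sirt2-/- libraries. The genotypes overlapped in both cell types, and in CD8+ TILs the overlap came from WT replicate 1 alone. Pmel shares 105 bases with Dgka and 837 bases with Cdk2, both on the other strand. The library kit was stranded but the strand setting of the counting is not given in the sources used here, and in Sirt2-/- CD4+ replicate 4, Pmel had 0 counts beside 57488 counts of Dgka. Mlana (ENSMUSG00000024806.4, chromosome 19, 29697824 to 29708634, plus strand), which encodes the melanosomal membrane protein MART-1, was at 2.89 CPM in WT CD4+ replicate 1, at 0 to 0.0956 CPM in the other 3 WT CD4+ libraries and at 0 to 0.756 CPM in Sirt2-/- CD4+ TILs. It was at 0 to 0.112 CPM in WT (at most 4 counts per library) and at 0.161 to 0.806 CPM in Sirt2-/- CD8+ TILs. These ranges did not meet, beside 2.93% of the genes tested in that comparison, for which Mlana itself was too low.

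The pigment enzymes differed in how far 1 library stood out. Tyr (ENSMUSG00000004651.6, chromosome 7, 87424771 to 87493512, minus strand), the rate-limiting enzyme of melanin synthesis, was at 10.3, 0.0450, 1.34 and 0.0239 CPM in WT and at 0.800, 0.123, 0.374 and 0 CPM in Sirt2-/- CD4+ TILs. It was at 1.52, 0, 0 and 0.109 CPM in WT and at 0.629, 0, 0.121 and 0.645 CPM in Sirt2-/- CD8+ TILs, with overlap in both cell types. In both cell types of WT mice, replicate 1 was the highest library. Tyrp1 (ENSMUSG00000005994.14, chromosome 4, 80834123 to 80851719, plus strand), which stabilises tyrosinase, was at 12.6, 0.629, 0.719 and 0.167 CPM in WT and at 0.845, 0.984, 0.608 and 0 CPM in Sirt2-/- CD4+ TILs. In CD8+ TILs it was at 0, 0.132, 0.112 and 0.246 CPM in WT and at 0.591, 0.0254, 0.502 and 2.86 CPM in Sirt2-/- libraries. Thus the 2 libraries of replicate 1 in WT mice lay at opposite ends, 12.6 CPM in CD4+ and 0 CPM in CD8+ TILs. Dct (ENSMUSG00000022129.4, chromosome 14, 118012790 to 118052244, minus strand), which converts dopachrome, was at 49.6, 2.32, 2.80 and 1.48 CPM in WT and at 1.76, 4.28, 2.36 and 24.6 CPM in Sirt2-/- CD4+ TILs. It was at 4.25, 0.927, 2.75 and 1.78 CPM in WT and at 3.05, 1.88, 2.11 and 5.32 CPM in Sirt2-/- CD8+ TILs. Dct and Mitf were the 2 genes with a count in all 16 libraries, and Dct in WT CD4+ replicate 1 was 17.7-fold above the next WT CD4+ library.

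Slc45a2 (ENSMUSG00000022243.10, chromosome 15, 11000721 to 11029233, plus strand), a melanosomal transporter, was at 4.89, 0.809, 0.671 and 0 CPM in WT and at 0.334, 0.0492, 0.257 and 0 CPM in Sirt2-/- CD4+ TILs. It was at 0.279, 0, 0 and 0.219 CPM in WT and at 0, 0.711, 0.161 and 0.443 CPM in Sirt2-/- CD8+ TILs, so the genotypes overlapped. The neural crest transcription factor Sox10 (ENSMUSG00000033006.10, chromosome 15, 79154908 to 79165240, minus strand) was at 1.57 and 0.922 CPM in WT CD4+ replicates 1 and 2 and at 0 in replicates 3 and 4. It was at 0 to 0.270 CPM in Sirt2-/- CD4+, at 0 to 0.265 CPM in WT CD8+ and at 0.0806 to 0.401 CPM in Sirt2-/- CD8+ TILs. Sox10 thus stayed at or below 0.401 CPM in 14 of the 16 libraries.

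Mitf (ENSMUSG00000035158.15, chromosome 6, 97807052 to 98021349, plus strand), the master regulator of pigment cells, was counted over all of its start sites, of which the M promoter is the one specific to melanocytes. It was at 13.7, 3.60, 7.59 and 3.06 CPM in WT and at 5.31, 3.61, 5.19 and 48.3 CPM in Sirt2-/- CD4+ TILs. It was at 2.33, 2.04, 2.44 and 1.97 CPM in WT and at 1.72, 3.93, 3.50 and 4.11 CPM in Sirt2-/- CD8+ TILs. All 4 WT CD8+ libraries were below all 4 WT CD4+ libraries. In Sirt2-/- mice, CD8+ replicates 2 and 4 lay above the lowest CD4+ library.

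Trpm1 (ENSMUSG00000030523.18, chromosome 7, 64153835 to 64269775, plus strand), a cation channel whose gene contains Mir211, had the opposite order. It was at 0, 0.472, 0.0719 and 0 CPM in WT and at 0.200, 1.28, 0.912 and 0 CPM in Sirt2-/- CD4+ TILs. It was at 1.27, 2.75, 1.54 and 1.92 CPM in WT and at 3.51, 2.59, 2.21 and 2.46 CPM in Sirt2-/- CD8+ TILs. Within each genotype, every CD8+ library was above every CD4+ library. Mir211 had 0 counts in every library, which a total RNA count table need not show. Gpnmb (ENSMUSG00000029816.10, chromosome 6, 49036546 to 49070929, plus strand), a melanosomal glycoprotein also known from macrophages, was at 28.7, 9.13, 15.7 and 5.57 CPM in WT and at 6.03, 11.0, 12.4 and 0 CPM in Sirt2-/- CD4+ TILs. It was at 2.88, 2.91, 1.94 and 2.24 CPM in WT and at 3.41, 2.82, 2.89 and 13.0 CPM in Sirt2-/- CD8+ TILs. All WT CD8+ libraries were below all WT CD4+ libraries. Sirt2-/- CD8+ replicate 4 lay far from the rest of its group, and Sirt2-/- CD4+ replicate 4 was at 0 CPM.

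**Figure D3:**
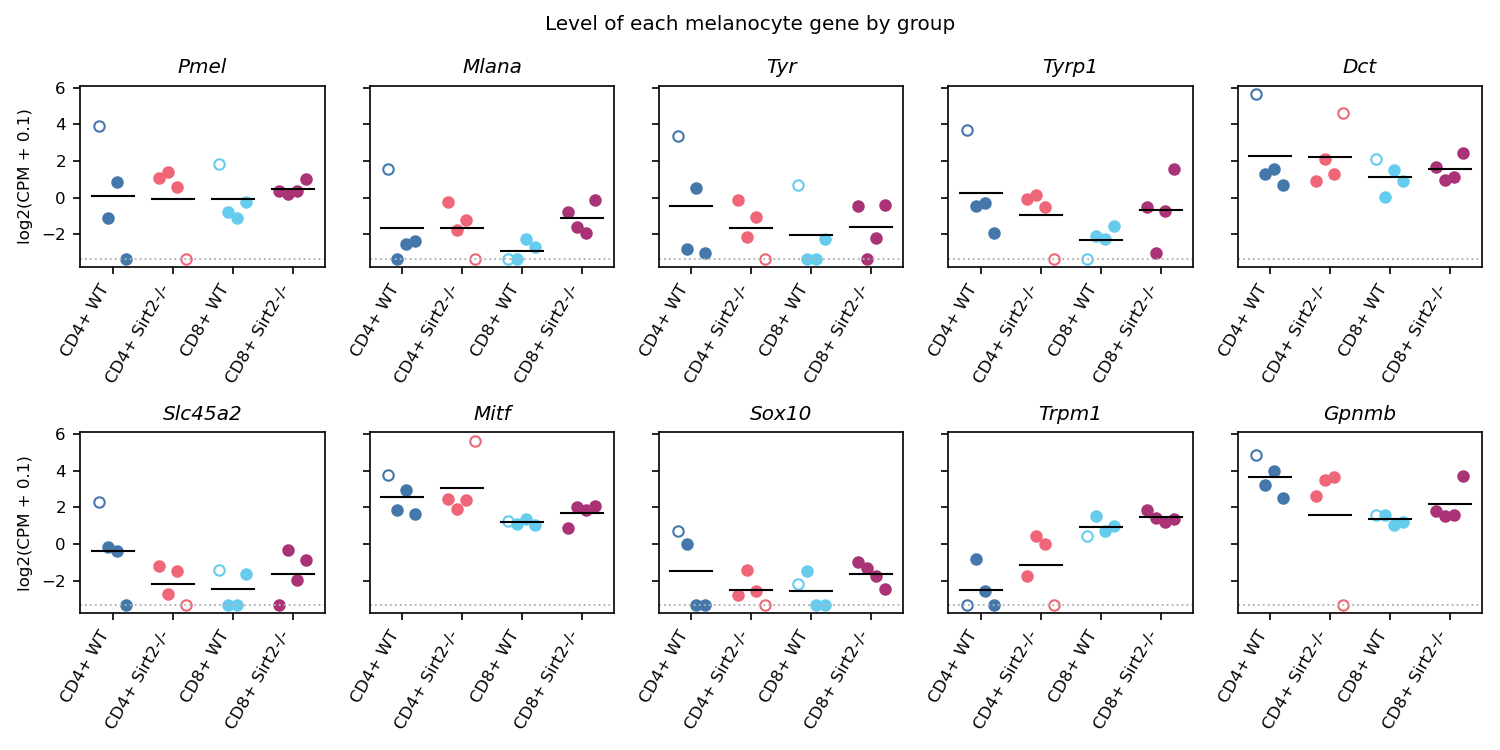
Level of each of the 10 genes as log2(CPM + 0.1) (y axis) in the 4 groups (x axis), 1 point per library, with open points for the 3 libraries with under 15000 genes with a count, black bars at the group mean of the plotted values and a dotted line at 0 CPM. Trpm1 lay higher in all CD8+ libraries than in the CD4+ libraries of the same genotype, and WT CD4+ replicate 1 was the highest library for 8 genes.

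Loss of Sirt2 was compared within each cell type to ask whether the amount of melanocyte RNA followed the genotype. In CD4+ TILs, 7 of the 10 genes passed the filter on low counts (all but Mlana, Sox10 and Trpm1), and none was called by the quasi-likelihood test of edgeR at an adjusted p below 0.05. The background was 0 of 15070 genes (0%), and 190 genes and none of the 7 had an unadjusted p below 0.05. Sirt2 itself was not called in CD4+ TILs, at a log2 fold change of -2.60 ± 1.26 (SE, adjusted p = 0.9999 in edgeR). DESeq2, which gave an adjusted p for 4 of the 7 (not for Tyrp1, Dct and Mitf), called none of those 4, against 0.0479% of all genes with an adjusted p, and limma-voom called none of the 7, against 0.0265%. The log2 fold changes (Sirt2-/- minus WT) ranged from -3.19 (Slc45a2, SE 1.96) to 1.33 (Mitf, SE 1.15), with an adjusted p of 0.9999 for each. Their median was -1.42, beside -0.11 over all genes tested. The standard errors were 1.15 to 2.05, so changes of several fold either way were not detectable here. The CPM of no tested member were apart between the genotypes, against 2.81% of all tested genes. Without WT replicate 1 and Sirt2-/- replicate 4, Pmel was at 1.57, Tyrp1 at 0.69 and Dct at 0.31 on the log2 scale, opposite in sign to the values with them (-1.42, -2.43 and -0.55), and Mitf moved from 1.33 to -0.030.

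In CD8+ TILs, 5 of the 10 genes passed the filter (Pmel, Dct, Mitf, Trpm1 and Gpnmb) and none was called by edgeR, DESeq2 or limma-voom. In edgeR, 1 of 15302 genes was called (0.00654%), which was Sirt2 itself, beside 0.185% of genes in DESeq2 and 0.0261% in limma-voom, and 579 genes had an unadjusted p below 0.05, of which 1 was a melanocyte gene. All 5 log2 fold changes (Sirt2-/- minus WT) were above 0, with a median of 0.55 beside 0.01 over all genes. Without Sirt2-/- replicate 4, Pmel was at -0.098 and Dct at -0.0010, and the median was 0.32. Macrophage markers had the same sign: all 10 that were tested had log2 fold changes above 0 (0.63 to 3.51, median 2.35), 4 of them with an unadjusted p below 0.05 and none called, and their part in the values of the melanocyte genes was not tested. Gpnmb had a log2 fold change of 1.17 ± 0.53 (SE), with an adjusted p of 0.99 in edgeR, and was at 0.32 without Sirt2-/- replicate 4. Its highest value was in Sirt2-/- replicate 4 at 13.0 CPM, while the other 3 Sirt2-/- libraries were at 2.82 to 3.41 CPM beside 1.94 to 2.91 CPM in WT. Mitf was at 0.61 ± 0.40, Trpm1 at 0.55 ± 0.44, Dct at 0.39 ± 0.54 and Pmel at 0.11 ± 0.77 (log2 fold change ± SE), with adjusted p from 0.986 to 0.998 in edgeR. None of the 5 genes was apart between the genotypes, against 2.93% of the genes tested. Without WT replicate 1, Pmel was at 1.35 on the log2 scale, and its 3 WT libraries (0.365 to 0.739 CPM) no longer overlapped the Sirt2-/- libraries (1.04 to 1.89 CPM), with an adjusted p of 0.9998 in edgeR. The 2.93% is for all libraries of both groups, and the share of all genes apart without this library was not determined.

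CD8+ and CD4+ TILs of the same genotype were compared over all 16 libraries, in which all 10 genes passed the filter. In WT mice none of the 10 was called by edgeR, against 811 of 17270 genes (4.70%). An unadjusted p below 0.05 was found for 4 of them and for 2636 genes in all. The log2 difference (CD8+ minus CD4+) was 3.77 ± 1.47 (SE) for Trpm1, with an adjusted p of 0.20 in edgeR, and its groups did not overlap. It was -2.51 ± 1.16 for Gpnmb (adjusted p = 0.31) and -1.62 ± 0.87 for Mitf (adjusted p = 0.42), also without overlap, and -4.70 ± 1.77 for Tyrp1 (adjusted p = 0.17), with overlap, all by edgeR. In this comparison 3 of the 10 genes were apart, beside 19.6% of all tested genes. The 9 genes other than Trpm1 had values below 0, with a median over the 10 of -2.54 beside 0.04 over all genes. WT CD4+ replicate 1 carried much of this. Without it the median over the 10 was -0.81, Tyr moved from -2.77 to -0.24 and Mlana from -4.01 to -0.48, and Pmel (0.89) and Dct (0.085) were above 0. Without WT CD8+ replicate 1, in turn, Tyr was at -6.09.

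These calls depended on single libraries and on the tool. Without the 3 libraries with few genes, Trpm1 (log2 difference 3.48, adjusted p = 0.0090), Gpnmb (-2.10, adjusted p = 0.012) and Mitf (-1.16, adjusted p = 0.040) were called by edgeR in WT mice. Tyrp1 was then at -1.59 (adjusted p = 0.34), and all 17993 genes tested gave 4588 calls (25.5%) in place of 811. Without Sirt2-/- CD4+ replicate 4 alone, which is not a WT library but enters the shared estimate of spread, the same 3 genes and Tyrp1 were called, among 3043 genes in all (16.8%). DESeq2 called Trpm1 and Tyrp1 in WT mice, beside 10.3% of all genes with an adjusted p, which Dct lacked. Limma-voom with sample quality weights called Trpm1, Gpnmb and Mitf, and 3 of 10 is near its share over all genes, 32.1%. Over the 23 alternatives the sign of the Trpm1 difference did not change, its log2 difference ranged from 3.34 to 6.11 and its adjusted p from 0.0024 to 0.36, with 4 of 23 calls. Gpnmb ranged from -2.76 to -2.03 and Mitf, over 24 alternatives, from -1.84 to -1.14, with 3 calls each.

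In Sirt2-/- mice edgeR called none of the 10 genes, against 781 of 17270 (4.52%), and 1 of the 10 (Mitf) and 2548 of all genes had an unadjusted p below 0.05. Trpm1 was at 2.24 ± 1.37 (log2 difference ± SE, CD8+ minus CD4+, adjusted p = 0.54 in edgeR) and was the only one of the 10 whose groups did not overlap, beside 20.0% of all tested genes. Mitf was at -2.35 ± 0.89 (adjusted p = 0.18 in edgeR), which rested on CD4+ replicate 4: without the libraries with few genes it was -0.50. Gpnmb was at -0.35 ± 1.10, with 0 CPM in the same CD4+ replicate 4. DESeq2 called Mitf and limma-voom called Trpm1 in these mice, and with at least 10 counts required in every library edgeR called Mitf. The shares over all genes were 9.38%, 28.4% and 20.3%. With DESeq2 and limma-voom, calls of 1 member were thus near or below the background. Under the filter of 10 counts only 2 of the 10 genes (Dct and Mitf) were tested, too few to set against a share. The median over all genes was itself at 0.18 in this comparison and at -0.0023 without the libraries with few genes, so small differences are to be read against it.

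Whether the effect of genotype differed between the cell types was also tested. No such difference was called for any of the 10 genes by edgeR or limma-voom, or for the 9 genes with an adjusted p in DESeq2 (all but Dct). Over all genes, edgeR and limma-voom called none of 17270 (0%) and DESeq2 called 2 (0.0118%). At an unadjusted p below 0.05 there were 342 genes and 1 melanocyte gene, Tyrp1, with a difference of 5.46 ± 2.29 (SE) on the log2 scale and an adjusted p of 0.9999 in edgeR. The Tyrp1 value came down to 1.91 without the 3 libraries with few genes. For Trpm1 the difference was -1.53 ± 1.87, and an interval of 2 standard errors on either side reached from -5.26 to 2.20.

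**Figure D4:**
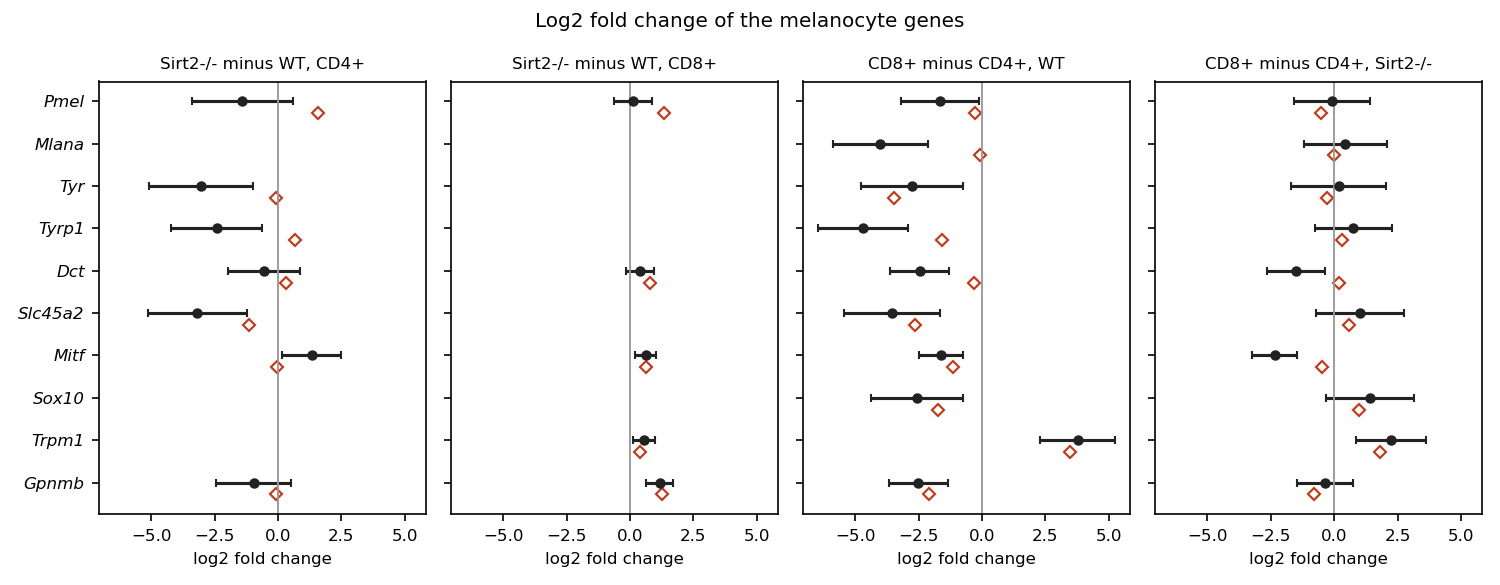
Log2 fold change (x axis) of each gene (y axis) in 4 comparisons, with black points for edgeR fits with all libraries (bars are 1 SE) and open red diamonds for fits without the 3 libraries with under 15000 genes with a count. Genes that did not pass the filter have no point. Trpm1 was at 3.77 and 3.48 in WT, while Pmel, Tyrp1 and Dct changed sign between the fits in CD4+ TILs.

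Other genes of pigment cells gave a further view. Of 23 such genes, 10 passed the filter in the CD4+ genotype comparison and 11 in the CD8+ comparison, with none called in either. Of the 15 tested between the cell types, none was called in WT and 1 in Sirt2-/- mice: Cdh1, which encodes E-cadherin, was 3.70 ± 0.93 (SE) higher in CD8+ TILs on the log2 scale (adjusted p = 0.033 in edgeR). The shares called over all genes were 4.70% in WT and 4.52% in Sirt2-/- mice, and 1 of 15 is near the latter. Cdh1 was at 3.23 ± 0.91 in WT mice (adjusted p = 0.056 in edgeR), and the difference between the genotypes was 0.46 (adjusted p = 0.9999 in edgeR). The most abundant by mean CPM were Cdh1 (74.1), the receptor genes Erbb3 (11.9) and Kit (10.8), and S100a1 (3.39 CPM), none of which is particular to pigment cells. The melanosomal genes Oca2 and Gpr143 were at most 0.267 and 0.112 CPM, Cdh3 (P-cadherin, which epithelia also make) had no count, and the melanocortin receptor gene Mc1r reached 2.08 CPM. WT CD4+ replicate 1 had counts for 8 of the 23 genes, of which 4 were at their highest there. This was not particular to it, since 5 of the 23 were highest in WT CD8+ replicate 1 and 3 in WT CD4+ replicate 2. Among the 4 in WT CD4+ replicate 1 was Mlph, which encodes the melanosome transport protein melanophilin, at 18.3 CPM, against at most 1.05 CPM in the other libraries. Mlph was chosen after its values were seen. In Sirt2-/- CD4+ replicate 4, 1 read was counted over all 23 genes, beside the 1535 reads of Dct. Of the 18 genes for the making and transport of melanosomes that lymphocytes also use, all were tested in each comparison and none was called between the genotypes. Only Lyst, a regulator of lysosome-related organelles, was called between the cell types, at 1.05 ± 0.29 in WT (adjusted p = 0.0495 in edgeR) and 1.26 ± 0.29 in Sirt2-/- mice (adjusted p = 0.018 in edgeR), higher in CD8+ TILs on the log2 scale. A call of 1 in 18 is near the shares over all genes, 4.70% and 4.52%.

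Because macrophages express Gpnmb and Mitf, 12 macrophage markers were measured beside them. Their summed level was 15.2 to 21.2 CPM in WT CD4+, 19.4 to 134 CPM in Sirt2-/- CD4+, 10.7 to 15.5 CPM in WT CD8+ and 14.9 to 55.9 CPM in Sirt2-/- CD8+ TILs. Of the 12, 8 were tested between genotypes in CD4+ and 10 in CD8+ TILs and 11 between the cell types, and none was called. All 8 had log2 fold changes above 0 in CD4+ TILs too (Sirt2-/- minus WT, 0.32 to 3.08, median 1.47), with 1 at an unadjusted p below 0.05. This was Apoe, at 123 CPM in Sirt2-/- CD4+ replicate 4 and at most 19.9 CPM in the other Sirt2-/- CD4+ libraries. In CD8+ TILs the values were 3.51 for Adgre1, 2.80 for Csf1r, 2.61 for Mrc1 and 1.93 for Lyz2, each with an adjusted p of 0.99 in edgeR, and the sums of Sirt2-/- replicates 2 and 4 (36.4 and 55.9 CPM) lay above all WT libraries. The most abundant were Apoe (3.43 to 123 CPM), Cd68 (0.0160 to 9.45 CPM), Lyz2 (0 to 10.8 CPM) and Csf1r (0 to 5.26 CPM). The 134 CPM were in Sirt2-/- CD4+ replicate 4, where Mitf was highest, but only 3 of the 12 markers had a count there: Apoe took 123 CPM and Lyz2 10.4 CPM, and Csf1r was at 0. In WT CD4+ replicate 1, with the highest Gpnmb, 2 of the 12 markers had a count and both Lyz2 and Csf1r were at 0. In Sirt2-/- CD8+ replicate 4, with Gpnmb at 13.0 CPM, all 12 had a count and Csf1r was at its highest, 5.26 CPM. Across the 13 libraries with at least 15000 genes, the Spearman correlation with the macrophage sum was 0.83 for Mitf, 0.71 for Gpnmb and 0.62 for the sum of the 7 pigment genes. Over all 16 libraries it was 0.82, 0.35 and 0.61, so the value of Gpnmb depended on the 3 libraries with few genes. These libraries share their total counts and groups, and the values are descriptions. The part of macrophage RNA in Gpnmb and Mitf was not tested. Mast cells also use MITF, and the 6 mast cell markers summed to at most 0.172 CPM.

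**Figure D5:**
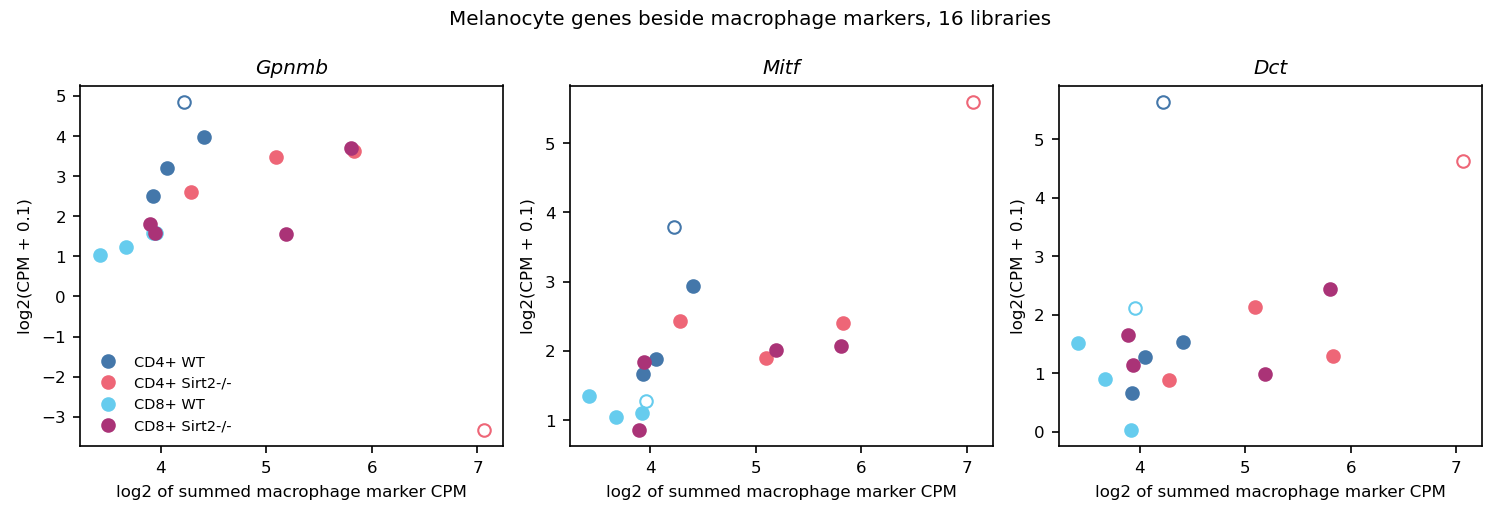
Gpnmb, Mitf and Dct as log2(CPM + 0.1) (y axes) against the log2 of the summed CPM of 12 macrophage markers (x axes) in the 16 libraries, colored by group, with open points for the 3 libraries with under 15000 genes with a count. The open point at the right is Sirt2-/- CD4+ replicate 4, with 134 CPM of macrophage markers, of which 123 CPM were Apoe.

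Other cell types of a tumor were checked in the same way. Fibroblast markers summed to 0 to 60.8 CPM. The highest values were in single Sirt2-/- libraries, 60.8 CPM in CD4+ replicate 2 and 54.4 CPM in CD8+ replicate 4. The other Sirt2-/- libraries were at 1.08 to 18.2 CPM, beside 0 to 14.3 CPM in WT. The keratinocyte sum was at most 2.42 CPM and the B cell sum at most 13.4 CPM. Schwann cell markers, which share Sox10 with pigment cells, summed to 14.1 to 203 CPM, mostly from Mbp, while Cdh19 had no count in 12 of the 16 libraries. The dendritic cell list was at 1.85 to 15.0 CPM, mostly Zbtb46, with Clec9a and Cd209a at 0 in all libraries. The endothelial sum was 37.1 to 165 CPM, and of its 5 genes Pecam1, which leukocytes also express, was at -1.38 in CD8+ minus CD4+ TILs of WT mice (adjusted p = 0.0049 in edgeR) and at -0.96 in Sirt2-/- mice (adjusted p = 0.051 in edgeR), and the difference between the genotypes, 0.43, was not called. The NK cell sum was 14.1 to 47.3 CPM in CD4+ and 212 to 418 CPM in CD8+ TILs, the latter mostly from Eomes. Of its 4 genes only Eomes was called, higher in CD8+ TILs of both genotypes (log2 differences of 3.55 in WT and 3.60 in Sirt2-/- mice). Ncr1, Klrb1c and Klra8 reached at most 3.39, 11.4 and 1.18 CPM in any library. The 10 T cell markers summed to 2274 to 3614 CPM. Between the cell types, Cd247, Cd2, Cd5 and Cd6 were called lower in CD8+ TILs of both genotypes, at log2 differences of -1.70 to -0.55. Cd3g (0.85) and Lck (0.73) were called higher in Sirt2-/- mice and were at 0.40 and 0.48 in WT mice without a call, with no call for the difference between the genotypes, and none of these lists had a gene called between the genotypes. Over all genes, edgeR called 4.70% between the cell types in WT and 4.52% in Sirt2-/- mice. The part of other cell types of the tumor in the melanocyte gene values was not tested.

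The melanocyte genes did not all follow one another. Over the 13 libraries with at least 15000 genes, the Spearman correlation of each gene with the sum of the other 9 was 0.82 for Tyrp1, 0.72 for Tyr, 0.68 for Gpnmb, and 0.66 for both Pmel and Mitf. It was 0.58 for Dct, 0.49 for Slc45a2, 0.44 for Mlana and 0.14 for Sox10, and Trpm1 was at -0.34. Over all 16 libraries Dct (0.70) and Mitf (0.72) were highest and Trpm1 was at -0.55. Trpm1 was also the gene that followed the number of genes with a count most closely (Spearman 0.72 over 16 libraries). These libraries share groups and depth, and no test was made.

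Among genes of at least 1 CPM on average with a count in at least 12 libraries, those whose CPM were most like the summed CPM of the melanocyte genes (Spearman, 16 libraries) included Ubl3 (0.86), I730030J21Rik (0.84), Tirap (0.84), Arid5a (0.84), Lgmn (0.84), Arl1 (0.83), Mtif3 (0.82), Golgb1 (0.81) and Nsmce1 (0.81). They include a lysosomal protease (Lgmn), proteins of the Golgi (Arl1, Golgb1) and an adaptor of Toll-like receptors (Tirap), and none of the named genes is a pigment cell gene. They were picked as the highest of 12712 genes. Each named gene had higher means in both CD4+ groups than in both CD8+ groups, as did the summed CPM. Likeness within a cell type was not determined. In the 13 libraries with at least 15000 genes the correlations of the named genes were 0.72 (Arl1 and Golgb1) to 0.82 (Nsmce1). None of them was then among the 10 most alike, which began with the macrophage gene Lyz2 (0.90), and Ubl3 stood at rank 77 of 12712 genes.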

How the data were processed

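The authors deposited 1 table of raw counts per gene (16 libraries, 4 in each group). The submitters' processing notes name STAR, HTSeq and the build mm10, without versions. The library kit was stranded total RNA from 1 ng of input. All 55450 identifiers were found in GENCODE mouse release 21.

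CPM used total counts (28000949 to 62407851). Tests used R 4.3.3 and edgeR 4.0.16 (TMM, filterByExpr, robust quasi-likelihood, two-sided, Benjamini-Hochberg threshold 0.05) over all genes, within a cell type for genotype and over 16 libraries otherwise. DESeq2 1.42.0, limma 3.58.1 voom, other scalings and filters, the replicate block and libraries left out were alternatives. Scripts were tested on simulated data. P-values measure the spread between libraries, and the labels do not tie libraries to single mice.

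The members and lists were chosen with earlier results of these data known. Named were all members, Sirt2, called list genes, the 4 most abundant genes of the pigment and macrophage lists, and the 10 genes most like the summed CPM. One of these 10 and 1 Schwann cell marker are not reported here.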

Additional observations from a re-analysis of the deposited data

Results flagged for a closer look

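Dixon's criterion sets the gap of the highest or lowest of 4 libraries against the group's whole range. By it, 1 library lay far from the others in 16 of 44 groups of values of the 10 genes and their sum. Chance gives about 1 in 20 groups where values are normally distributed. That share need not hold for CPM near 0, and 26 of the 160 values of the 10 genes were 0. The values of 1 library are not independent of each other. WT CD4+ replicate 1 was above its group with 15.0 CPM of Pmel, 10.3 of Tyr, 12.6 of Tyrp1, 49.6 of Dct, 2.89 of Mlana, 4.89 of Slc45a2 and a sum of 139 CPM. Sirt2-/- CD4+ replicate 4 was above its group with 24.6 CPM of Dct, 48.3 of Mitf and a sum of 72.9 CPM. WT CD8+ replicate 1 was above its group with 3.47 CPM of Pmel, 1.52 of Tyr and a sum of 16.1 CPM. These are the 3 libraries with the fewest genes with a count. Sirt2-/- CD8+ replicate 4, with 22138 genes, was above its group with 13.0 CPM of Gpnmb and a sum of 31.6 CPM. WT CD4+ replicate 2 was above its group with 0.472 CPM of Trpm1.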

How the results depend on the processing

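Of 895 values of the log2 fold change of single genes under alternatives, 830 kept sign and side of the threshold (counting 6 of DESeq2 that have no adjusted p by their sign), 15 came to pass it and 50 changed sign, and no called gene was lost since edgeR called none. Genes called between cell types in WT mice came to 2 with DESeq2 (10.3% of all genes with an adjusted p), 3 with limma-voom (32.1%), 3 without libraries under 15000 genes (25.5%) and 0 to 4 with 1 library left out. In Sirt2-/- mice 1 was called with DESeq2 (9.38% of all genes) and 1 with limma-voom (28.4%). With at least 10 counts in every library, 1 of the 2 genes tested was called (20.3% of all genes). With the replicate block none of the 10 was called in any comparison, and calls over all genes between cell types came to 648 in WT (811 without it) and 582 in Sirt2-/- mice (781). Whether same-numbered CD4+ and CD8+ libraries of a genotype share a mouse is not in the labels. In WT their residuals correlated from 0.072 to 0.12, above 0.1 in 3 of the 4 pairs, and all 8 libraries were closest to their own number. In Sirt2-/- mice they correlated from -0.013 to 0.13, above 0.1 in 1 of 4 pairs, with 3 of 8 libraries closest to their own number. The hint in WT is from the data and not from the design. Libraries of different genotypes come from different mice, and their same-numbered residuals correlated from -0.067 to 0.075. In genotype comparisons the block thus pairs libraries by number only. Without Gpnmb and Mitf the mean sums were 27.9 CPM in WT CD4+, 11.8 in Sirt2-/- CD4+, 6.35 in WT CD8+ and 9.45 in Sirt2-/- CD8+ TILs. Of the 10 genes most like the sum, 2 were shared with Pearson correlation.

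For Sirt2-/- minus WT in CD4+ TILs, the sign changed with limma-voom (Pmel 1.88, Tyrp1 0.42, Dct 0.28, Mitf -0.26), with the replicate block (Dct 0.23) and without libraries under 15000 genes (Pmel 1.57, Tyrp1 0.69, Dct 0.31, Mitf -0.030). With 1 library left out it ranged from -1.83 to 1.16 for Pmel, -2.81 to 0.27 for Tyrp1, -2.23 to 2.001 for Dct and -0.52 to 1.82 for Mitf, and in CD8+ TILs from -0.18 to 1.35 for Pmel and -0.0010 to 0.80 for Dct.

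For CD8+ minus CD4+ in WT, Pmel was at 0.17 with limma-voom, and with 1 library left out Pmel ranged from -2.89 to 0.89 and Dct from -2.86 to 0.085. In Sirt2-/- mice the sign changed with limma-voom (Tyr -0.22, Tyrp1 -0.53, Dct 0.059), with the replicate block (Pmel 0.33, Tyr -0.46, Tyrp1 -0.18) and without libraries under 15000 genes (Tyr -0.26, Dct 0.18, Mlana -0.0081). With 1 library left out it ranged from -0.53 to 0.27 for Pmel, -0.31 to 1.17 for Tyr, -0.60 to 1.17 for Tyrp1, -1.89 to 0.18 for Dct, -0.071 to 1.33 for Mlana and -1.20 to 0.014 for Gpnmb.

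For the difference in genotype effect, limma-voom gave -0.66 for Pmel and 0.81 for Mitf, the replicate block 0.068 for Mitf, and leaving out libraries under 15000 genes -0.23 for Pmel and 0.66 for Mitf. With 1 library left out it ranged from -0.99 to 2.81 for Pmel, -1.59 to 2.65 for Dct and -1.21 to 1.14 for Mitf. The cause was not tested. The replicate block moved the median over all genes from 0.18 to 0.53 in Sirt2-/- CD8+ minus CD4+. Of the 160 values of the 10 genes, 115 were under 100 counts, which limits their precision.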
